A study of Rattus norvegicus with 20 samples.

Results

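The S100 genes encode small calcium-binding proteins, and 9 of them are described here in rat brain white matter and injured cervical spinal cord: S100a1, S100a4, S100a6, S100a8, S100a9, S100a10, S100a11, S100a13 and S100b. They were taken by gene symbol from a table of 30443 genes, in which each of the 9 symbols had a single entry. All 9 reached 1 FPKM (sequenced fragments of a gene scaled to the length of its transcripts and to the size of the library) in at least 1 library, as did 15210 genes in all, and these genes were tested.

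RNA was sequenced from 5 regions of 4 adult female wild-type Long-Evans rats of about 6 to 8 months and 275 to 350 g, which made 20 libraries. Every rat received a C4 hemicontusion of 0.7 mm displacement on the side of the dominant forelimb, and an electrode array in the opposite motor cortex 2 weeks later, preceded by dexamethasone, an anti-inflammatory steroid. The 2 stimulated rats received pulses at 10 Hz and 80% of the movement threshold for 5 h a day during 1 week, and the 2 control rats were connected to a sham stimulator without current. Region 1 was subcortical white matter below the electrodes, region 2 the matching white matter of the other hemisphere, region 3 cord rostral to the injury, region 4 the lesion epicenter and region 5 cord caudal to the injury. No uninjured or unimplanted rat was sequenced, so no value below is a change from intact tissue.

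S100 proteins bind calcium through EF-hand motifs, mostly as dimers, and then bind other proteins. Some also leave the cell and act on receptors such as Ager (RAGE) and Tlr4. In nervous tissue S100b is best known as an astrocyte protein, although oligodendrocytes and Schwann cells make it too. S100a8 and S100a9 form calprotectin, an abundant protein of neutrophils, and S100a10 forms a complex with annexin A2. S100a4, S100a6, S100a10 and S100a11 are widely made by mesenchymal, immune and reactive glial cells.

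In the RefSeq gene order of the later rat assembly GRCr8, 8 of the 9 genes lay on chromosome 2 and S100b on chromosome 20. S100a1 and S100a13 were neighbours there, as were S100a8 and S100a9, and S100a11 and S100a10. The pair S100a11 and S100a10 lay 59 protein coding genes beyond S100a9. Sequences of the 250 bases upstream of the annotated start were at hand from RefSeq (GRCr8) for 6 of the 9 genes, and 3 are shown here. S100a4 and S100a9 are shown because both were high in the same pair of white matter libraries, and S100b because it was the most abundant member and was low in 1 of those libraries. They lie at chr2:178388279-178388528 (S100a4, plus strand), chr2:178490623-178490872 (S100a9, minus strand) and chr20:12381082-12381331 (S100b, minus strand), and capitals mark the matches to the motifs searched.
S100a4: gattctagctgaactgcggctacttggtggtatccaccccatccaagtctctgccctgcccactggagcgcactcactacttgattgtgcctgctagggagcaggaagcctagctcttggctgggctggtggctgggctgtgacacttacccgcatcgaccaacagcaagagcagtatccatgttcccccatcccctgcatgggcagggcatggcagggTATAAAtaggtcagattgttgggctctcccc
S100a9: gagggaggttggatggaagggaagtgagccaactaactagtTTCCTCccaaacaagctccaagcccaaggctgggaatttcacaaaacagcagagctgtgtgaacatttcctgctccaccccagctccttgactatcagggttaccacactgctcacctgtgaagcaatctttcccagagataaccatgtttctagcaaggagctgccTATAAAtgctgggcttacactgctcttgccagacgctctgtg
S100b: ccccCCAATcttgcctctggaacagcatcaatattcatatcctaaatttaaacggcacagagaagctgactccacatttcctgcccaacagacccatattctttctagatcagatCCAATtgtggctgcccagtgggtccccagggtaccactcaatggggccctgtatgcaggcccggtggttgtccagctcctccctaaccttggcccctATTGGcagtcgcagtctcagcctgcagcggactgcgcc
Both strands were searched for TATAAA (the TATA box core), TGANTCA (AP-1), GAGGAA (the PU.1 core), GGGCGG (the GC box) and CCAAT. The motif TATAAA was found 31 bases upstream of the start of S100a4 and 42 bases upstream of that of S100a9, and 12.9% of the 33469 promoters of the same length held it. S100a9 also held GAGGAA on the other strand (23.3% of promoters), S100b held CCAAT at 3 places and S100a13 held it once, 185 bases upstream (34.0%), and S100a6, S100a11 and S100a13 held GGGCGG (30.5%). TGANTCA, found in 6.34% of promoters, was in none of the 6. S100a4, S100a9 and S100b thus held different motifs of this list, apart from the TATA box core shared by the first 2, and a match describes the letters only.

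Of the whole data set, 4 facts bear on these genes. Slc17a7, the vesicular glutamate transporter of cortical excitatory neurons, measured between 225 and 329 FPKM in the 8 white matter libraries and between 0.318 and 11.8 FPKM in the 12 cord libraries, although the labels describe the white matter blocks as free of cortex. The region 1 and region 2 libraries of stimulated animal 2 stood apart from the other white matter libraries in many members. The calls of members between regions are given without these 2 libraries as well. That setting was chosen after the values were seen. Leaving out outlying libraries narrows the spread, so its p-values are a description and no independent evidence of a difference. The deposited table holds no value under 0.1 FPKM, and S100a8, S100a9 and S100a11 were each listed at 0.1 in 1 library. Myh9, a non-muscle myosin that is broadly made and binds S100a4, was listed at 0.1 in all 20 libraries, so a value of 0.1 may be a failed estimate.

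**Figure D1:**
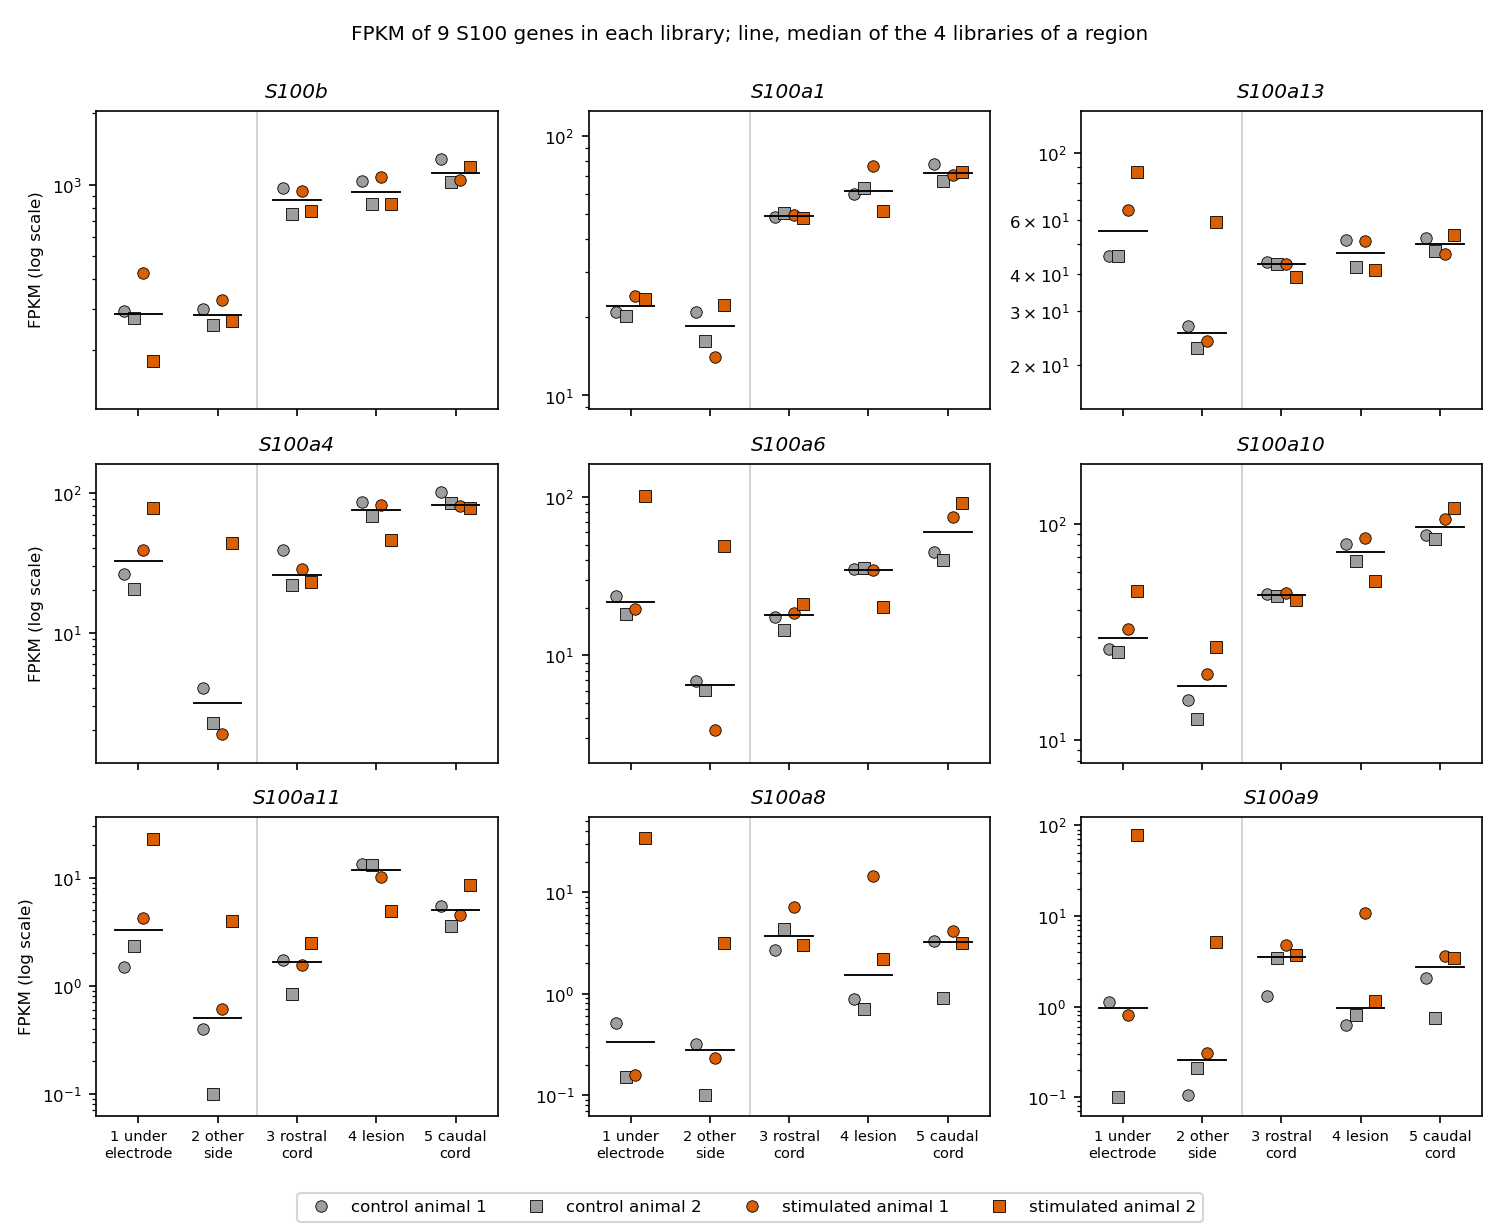
FPKM (log scale) of the 9 S100 genes in each of the 20 libraries, by region, with grey symbols for control and orange symbols for stimulated animals and a line at the median of the 4 libraries of a region. S100b and S100a1 lie lower in both white matter regions than in every cord library, and the orange squares of stimulated animal 2 lie above the other 3 libraries of regions 1 and 2 in S100a4, S100a6, S100a11, S100a8 and S100a9.

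The level of the 9 genes, compared per transcript length in FPKM, spanned a wide range. S100b was the most abundant, from 180.2 to 1283 FPKM, and held between 72.9% and 82.8% of the summed FPKM of the 9 genes in the cord libraries. In white matter its share was between 66.8% and 83.5% in 6 libraries, and 27.6% and 55.4% in the region 1 and region 2 libraries of stimulated animal 2. S100a1, S100a4, S100a6, S100a10 and S100a13 came next, with region medians between 3.13 FPKM (S100a4 in region 2) and 96.9 FPKM (S100a10 in region 5). S100a11, S100a8 and S100a9 had region medians of 0.257 to 11.7 FPKM, a range that overlaps that of the genes before them. Measured by the spread of log2 FPKM over the 20 libraries, S100a13 varied least (SD 0.46) and S100a9 most (SD 2.30), closely followed by S100a8 (SD 2.29).

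White matter and cord were compared first, as the mean of regions 1 and 2 against the mean of regions 3, 4 and 5 in log2 FPKM. Of the 9 genes, 7 were lower in white matter, 0 were higher and 2 did not pass the test (limma, Benjamini-Hochberg adjusted p under 0.05). Over all genes tested, 47.1% were lower and 25% higher in white matter, and the median difference of the 9 genes was -1.51 on the log2 scale against -0.18 over all genes. In bulk tissue, fewer cells of a type and less RNA per cell cannot be told apart.

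S100b ranged from 180.2 to 424 FPKM in the 8 white matter libraries (median 284) and from 748 to 1283 FPKM in the 12 cord libraries (median 1001). The groups did not overlap, and S100b was lower in white matter by a factor of 3.42 (log2 fold change -1.77, SE 0.12, adjusted p = 1.72e-10). S100a1, a regulator of calcium handling in muscle that is also made in brain, ranged from 14.1 to 24.1 FPKM in white matter (median 20.9) and from 48.1 to 78.3 FPKM in cord (median 61.4). Its groups did not overlap either, with a log2 fold change of -1.59 (SE 0.08, adjusted p = 2.49e-12). These 2 genes were the only members without overlap between the tissues, and 16.8% of all genes tested likewise had every white matter library below every cord library.

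S100a13, which takes part in the release of Fgf1 from cells, had a median of 45.8 FPKM in white matter, with values from 22.7 to 86.6 FPKM. Its cord median was 45.1 FPKM, with values from 38.9 to 53.9 FPKM. Its log2 difference was -0.12, with a 95% confidence interval from -0.44 to 0.20 (adjusted p = 0.475). The spread of S100a13 in white matter enclosed its whole range in cord.

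Among the genes known from injury and mesenchymal cells, S100a10, the partner of annexin A2, ranged from 12.6 to 49.0 FPKM in white matter (median 26.0) and from 44.2 to 119 FPKM in cord (median 74.2). It was lower in white matter by 1.51 on the log2 scale (log2 fold change -1.51, SE 0.14, adjusted p = 1.21e-08), and the groups overlapped through the region 1 library of stimulated animal 2. S100a4, a binding partner of myosin linked to cell motility, had medians of 23.3 FPKM in white matter and 73.3 FPKM in cord and a log2 fold change of -1.99 (SE 0.43, adjusted p = 0.000414). S100a6 (calcyclin) had medians of 18.9 and 34.8 FPKM, with a log2 fold change of -0.93 (SE 0.40, adjusted p = 0.0450). S100a11 (calgizzarin) had medians of 1.91 and 4.67 FPKM, with a log2 fold change of -1.47 (SE 0.55, adjusted p = 0.0236). The calls of S100a6 and S100a11 lay close to the threshold, and the white matter range of each enclosed its whole cord range.

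The calprotectin genes were low in most white matter libraries. S100a8 had a median of 0.278 FPKM in white matter, with values from 0.1 to 34.5 FPKM, and a median of 3.09 FPKM in cord, with values from 0.699 to 14.3 FPKM (log2 fold change -2.30, SE 0.90, adjusted p = 0.0282). S100a9 had medians of 0.559 and 2.74 FPKM, and its white matter values ran from 0.1 to 77.4 FPKM (log2 fold change -1.35, SE 0.97, adjusted p = 0.215). For both genes the highest library of all 20 was in white matter, while the median was lower there.

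The number of members called in this comparison depended on the settings. Only S100a1, S100a4, S100a10 and S100b were called when 1 was added to the FPKM values in place of a floor, when no filter was applied, with quantile normalization, and without control animal 1, control animal 2 or stimulated animal 1. Between 40.9% and 72.8% of all genes tested were called in either direction under those settings. S100a6 alone also lost its call with upper-quartile scaling, without an intensity trend and with a mean per region and group (adjusted p from 0.0537 to 0.0679). Without stimulated animal 2 all 9 were called and lower in white matter, and the share of all genes called in either direction was then 77.3% against 72.2% with every library. All 9 were also called without only the region 1 and region 2 libraries of that animal (76.9% of all genes), a setting chosen after the values were seen. S100a9 then had a log2 fold change of -2.88 (adjusted p = 0.000581) and S100a13 one of -0.38 (adjusted p = 0.000372). Oligodendrocyte markers, of which 7 of 7 were lower in white matter, summed to between 735 and 3103 FPKM there and to between 7621 and 11094 FPKM in cord. Schwann cell markers were lower in 5 of 5 and astrocyte markers in 5 of 7, with 2 higher. Macrophage and microglia markers were lower in 5 of 9, endothelial markers in 3 of 4, ependymal markers in 2 of 3, motor and sensory neuron markers in 4 of 4, red blood cell markers in 3 of 3, fibroblast markers in 2 of 5 and neutrophil markers in 2 of 7. General neuron markers were higher in white matter in 3 of the 3 tested and summed to between 593 and 1264 FPKM there and to between 372 and 783 FPKM in cord. Slc17a7 was higher in white matter as well (log2 fold change 7.95, SE 0.39, adjusted p = 8.39e-13). Their part in the S100 differences was not tested.

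**Figure D2:**
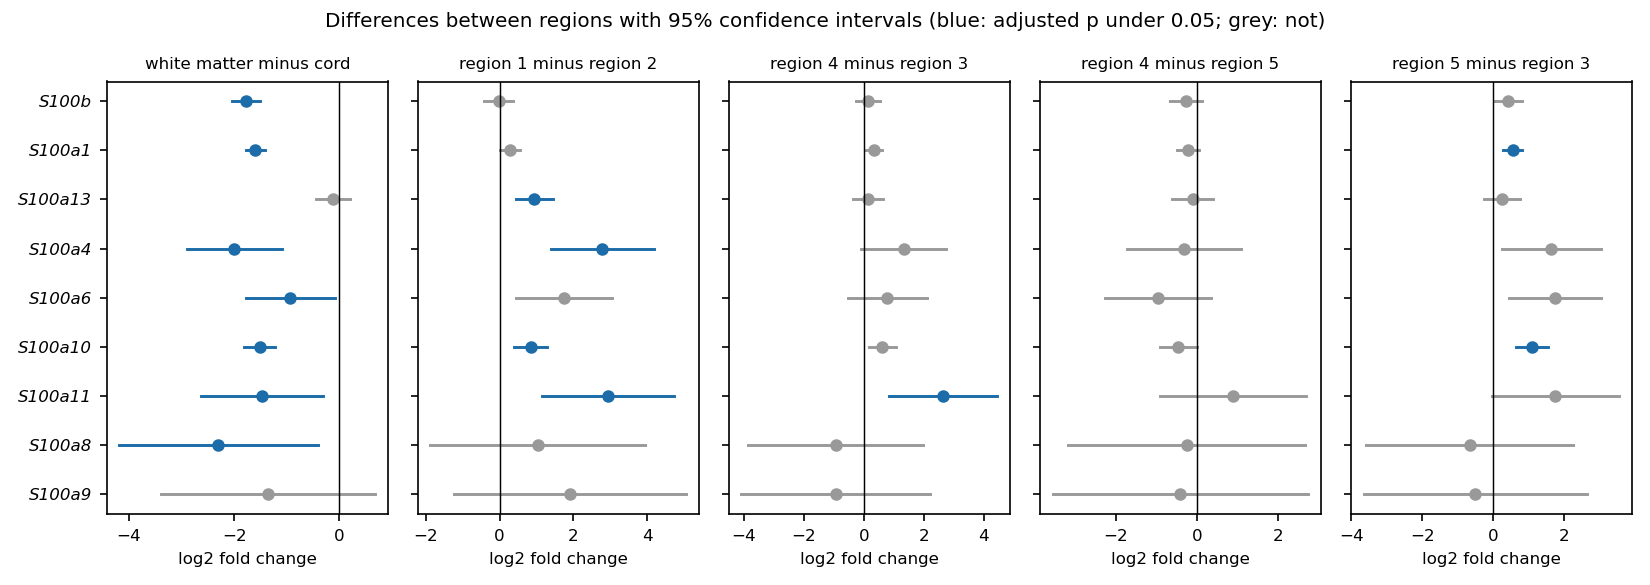
Log2 fold changes of the 9 S100 genes in the 5 comparisons between regions, as points with 95% confidence intervals, blue where the adjusted p was under 0.05 and grey where it was not. White matter minus cord shows 7 blue points below 0, region 1 minus region 2 shows 4 above 0, and the intervals of S100a8 and S100a9 are the widest in every comparison.

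The white matter under the electrodes (region 1) was then compared with that of the other hemisphere (region 2), in 4 libraries each. S100a4, S100a10, S100a11 and S100a13 were higher in region 1, 0 members were lower and 5 did not pass the test. Over all genes tested, 6.86% were higher and 1.76% lower in region 1.

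S100a4 measured 26.1 and 20.5 FPKM in the region 1 libraries of the control animals and 39.2 and 78.2 FPKM in those of the stimulated animals. In region 2 it measured 4.00, 2.25, 1.87 and 43.5 FPKM in the same order. It was 6.88 times higher in region 1 (log2 fold change 2.78, SE 0.67, adjusted p = 0.0166), and the regions overlapped only through stimulated animal 2. S100a11 measured 1.49, 2.32, 4.22 and 22.8 FPKM in region 1 and 0.398, 0.1, 0.606 and 3.98 FPKM in region 2 (log2 fold change 2.94, SE 0.86, adjusted p = 0.0412). Every animal had more S100a11 in region 1 than in region 2.

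S100a13 measured 45.8, 45.8, 65.0 and 86.6 FPKM in region 1 and 26.8, 22.7, 23.9 and 59.1 FPKM in region 2 (log2 fold change 0.94, SE 0.24, adjusted p = 0.0208). S100a10 measured 26.3, 25.6, 32.7 and 49.0 FPKM in region 1 and 15.4, 12.6, 20.1 and 26.8 FPKM in region 2 (log2 fold change 0.84, SE 0.22, adjusted p = 0.0237). Both were higher in region 1 within each of the 4 animals. S100a6 measured 23.7, 18.2, 19.6 and 101 FPKM in region 1 and 6.87, 6.08, 3.37 and 49.2 FPKM in region 2. Its log2 difference of 1.74 (SE 0.62, adjusted p = 0.0877) passed the threshold once the animal was a block (adjusted p = 0.0462).

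S100b did not differ beyond its spread between the hemispheres, with means of 293 ± 100.4 and 287 ± 32.4 FPKM (SD, n = 4) and a log2 difference of -0.03 (95% confidence interval from -0.43 to 0.37, adjusted p = 0.954). S100a1 had means of 22.2 ± 1.93 and 18.4 ± 3.92 FPKM and a log2 difference of 0.29 (adjusted p = 0.168). S100a8 and S100a9 had log2 differences of 1.03 and 1.92, with standard errors of 1.39 and 1.50, and neither passed the test.

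The region 1 calls rested on few animals. Without control animal 1, control animal 2 or stimulated animal 1, or with no filter on low genes, 0 of the 9 were called. The share of all genes tested that were called in either direction was then between 0.171% and 2.29%, against 8.61% with the main settings. Without stimulated animal 2 the called members were 5, S100a6 included, and the share of all genes was 24.2%. Without the region 1 and region 2 libraries of stimulated animal 2, S100a4 had a log2 fold change of 3.43 (adjusted p = 4.36e-06) and S100a6 one of 1.97 (adjusted p = 0.000336). Fibroblast markers were higher in region 1 in 5 of the 5 tested, oligodendrocyte markers in 6 of 7, astrocyte markers in 3 of 7 and macrophage and microglia markers in 2 of 9. The part of these cells in the S100 differences was not tested.

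Within the cord, the lesion epicenter (region 4) was compared with the rostral cord (region 3). S100a11 was the only member called and was higher at the lesion. It measured 13.3, 13.1, 10.3 and 4.87 FPKM at the lesion in control 1, control 2, stimulated 1 and stimulated 2, and 1.75, 0.833, 1.56 and 2.50 FPKM rostrally. The regions did not overlap, which made S100a11 1 of 4 members with every lesion library above every rostral one, against 13% of all genes. The difference was 6.25-fold (log2 fold change 2.64, SE 0.86, adjusted p = 0.0374). Over all genes tested, 6.78% were higher and 12.8% lower at the lesion.

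The other 3 of these members, S100a10, S100a4 and S100a1, did not pass the test across all genes. S100a10 had means of 72.3 ± 14.2 and 46.4 ± 1.57 FPKM (SD, n = 4) and a log2 difference of 0.62 (adjusted p = 0.0524), which passed the threshold with the animal as a block (adjusted p = 0.0311). S100a4 had means of 70.6 ± 18.1 and 28.2 ± 7.96 FPKM and a log2 difference of 1.32 (adjusted p = 0.167). S100a1 had means of 62.7 ± 10.5 and 49.3 ± 1.15 FPKM and a log2 difference of 0.33 (adjusted p = 0.0757).

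These values changed with the libraries used, since all 20 share one estimate of the spread. Without the region 1 and region 2 libraries of stimulated animal 2, which are no cord libraries, 5 members were called. They were S100a1, S100a4 (adjusted p = 0.00123), S100a6, S100a10 and S100a11. The share of all genes called in either direction was then 33.7%, against 19.6% with the main settings. Without stimulated animal 2 altogether the same 5 were called, with 32.3% of all genes. Without any one of the other 3 animals, or with no filter, 0 members were called, with between 3.44% and 9.15% of all genes tested. Macrophage and microglia markers were higher at the lesion in 5 of 9, with sums of 423 to 1004 FPKM against 173 to 267 FPKM rostrally, and Schwann cell markers in 3 of 5. Their part in the S100 differences was not tested.

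S100b, at 944 ± 135 FPKM at the lesion and 859 ± 114 FPKM rostrally, had a log2 difference of 0.14 (95% confidence interval from -0.26 to 0.53, adjusted p = 0.655). S100a8 measured 0.879, 0.699, 14.3 and 2.21 FPKM at the lesion and 2.70, 4.34, 7.12 and 3.00 FPKM rostrally. Its log2 difference was -0.92 (SE 1.39, adjusted p = 0.678), and that of S100a9 was also -0.92 (SE 1.50, adjusted p = 0.704). In both control animals both genes were lower at the lesion than rostrally, and in stimulated animal 1 both were higher.

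The lesion epicenter was compared with the caudal cord (region 5) in the same way, and 0 of the 9 members were called, with an unadjusted p under 0.05 for 1 member. Among all genes tested, 0.934% were higher and 7.06% lower at the lesion. S100a10 was 72.3 ± 14.2 FPKM at the lesion and 99.4 ± 15.6 FPKM caudally, a log2 difference of -0.47 (95% confidence interval from -0.92 to -0.01, adjusted p = 0.161). S100a6 measured 34.9, 35.6, 34.6 and 20.2 FPKM at the lesion and 45.2, 40.1, 74.6 and 91.8 FPKM caudally. S100a6 was the only member of the 9 with every lesion library below every caudal one, as were 16.3% of all genes, and the log2 difference of -0.96 (SE 0.62) did not pass the test (adjusted p = 0.318). Without the region 1 and region 2 libraries of stimulated animal 2, S100a6 (adjusted p = 0.0235) and S100a10 (adjusted p = 0.0434) were called and lower at the lesion. The share of all genes called in either direction was then 21.8%, against 7.99% with every library, and 2890 of these 3314 genes were lower at the lesion.

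Caudal and rostral cord differed in S100a10 and S100a1, both higher caudally, and 7 members did not pass the test. Of all 15210 genes tested, 2.77% were higher and 1.55% lower caudally. S100a10 measured 88.7, 84.9, 105 and 119 FPKM caudally and 47.5, 46.2, 47.7 and 44.2 FPKM rostrally, a 2.12-fold difference (log2 fold change 1.09, SE 0.22, adjusted p = 0.0100). S100a1 measured 78.3, 67.0, 70.6 and 72.9 FPKM caudally and 48.7, 50.7, 49.8 and 48.1 FPKM rostrally (log2 fold change 0.55, SE 0.13, adjusted p = 0.0224). Neither gene overlapped between the regions.

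S100a4, S100a6, S100a11, S100a13 and S100b did not overlap between caudal and rostral cord either, and all had higher values caudally without passing the test. With S100a10 and S100a1 this made 7 of 9 members, against 20.5% of all genes. Their log2 differences were 1.64 for S100a4 (adjusted p = 0.148), 1.74 for S100a6 (0.108), 1.76 for S100a11 (0.212), 0.25 for S100a13 (0.522) and 0.41 for S100b (0.194). Without stimulated animal 2 the called members were S100a1, S100a4, S100a6 and S100a10, with 8.13% of all genes called in either direction. Without any one of the other 3 animals 0 members were called, with between 0.355% and 0.894% of all genes. Without the region 1 and region 2 libraries of stimulated animal 2 the called members were 5, with S100a11 added (adjusted p = 0.0290). The share of all genes was then 19.9%, against 4.32% with every library. Schwann cell markers were higher caudally in 4 of 5, and motor and sensory neuron markers in 2 of 4, the latter summing to between 68.5 and 101 FPKM caudally and between 27.4 and 32.8 FPKM rostrally. Fibroblast markers summed to between 48.0 and 151 FPKM caudally and between 27.4 and 41.1 FPKM rostrally, with 0 of 5 called. Astrocyte markers summed to between 2478 and 2831 FPKM and between 1482 and 1921 FPKM, with 0 of 7 called. None of these 3 sums overlapped between the regions, and the part of these cells in the S100 differences was not tested.

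The order of the regions by mean FPKM was the same for S100b, S100a1 and S100a10, from region 5 through regions 4, 3 and 1 to region 2. For S100b, regions 1 and 2 overlapped, as did regions 3 and 4 and regions 4 and 5, while both white matter regions lay below all 3 cord regions. For S100a1 the neighbours 4 and 5 overlapped, as did 1 and 2, and region 3 lay below region 4 and above region 1. For S100a10, region 4 lay above region 3, and the other neighbours overlapped. S100a4 followed the order 5, 4, 1, 3 and 2 and S100a6 the order 5, 1, 4, 3 and 2, and each neighbour in both orders overlapped the next. S100a13 ran in the order 1, 5, 4, 3 and 2 and S100a11 in the order 4, 1, 5, 3 and 2, while S100a8 and S100a9 shared the order 1, 4, 3, 5 and 2. Region 2 held the lowest mean of all 9 genes. Region 1 came first for S100a8 and S100a9 through 1 library. Without the region 1 and region 2 libraries of stimulated animal 2 its means were 0.273 and 0.680 FPKM over 3 libraries, and the order was 4, 3, 5, 1 and 2 for both genes. S100a6 then followed the order 5, 4, 1, 3 and 2 and S100a11 the order 4, 5, 1, 3 and 2, while the orders of the other 5 genes and the place of region 2 were as before.

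Stimulated and control animals were compared within each region, with 2 libraries a group. Of the 9 members, 0 were called in any of the 5 regions by limma, with an unadjusted p under 0.05 for 2, 1, 0, 1 and 3 members in regions 1 to 5. Over all genes tested, 0% were called in regions 1 to 4 and 0.0197% in region 5. With 2 animals a group, an exact permutation test of a single gene could not go below p = 0.333 (two-sided).

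**Figure D3:**
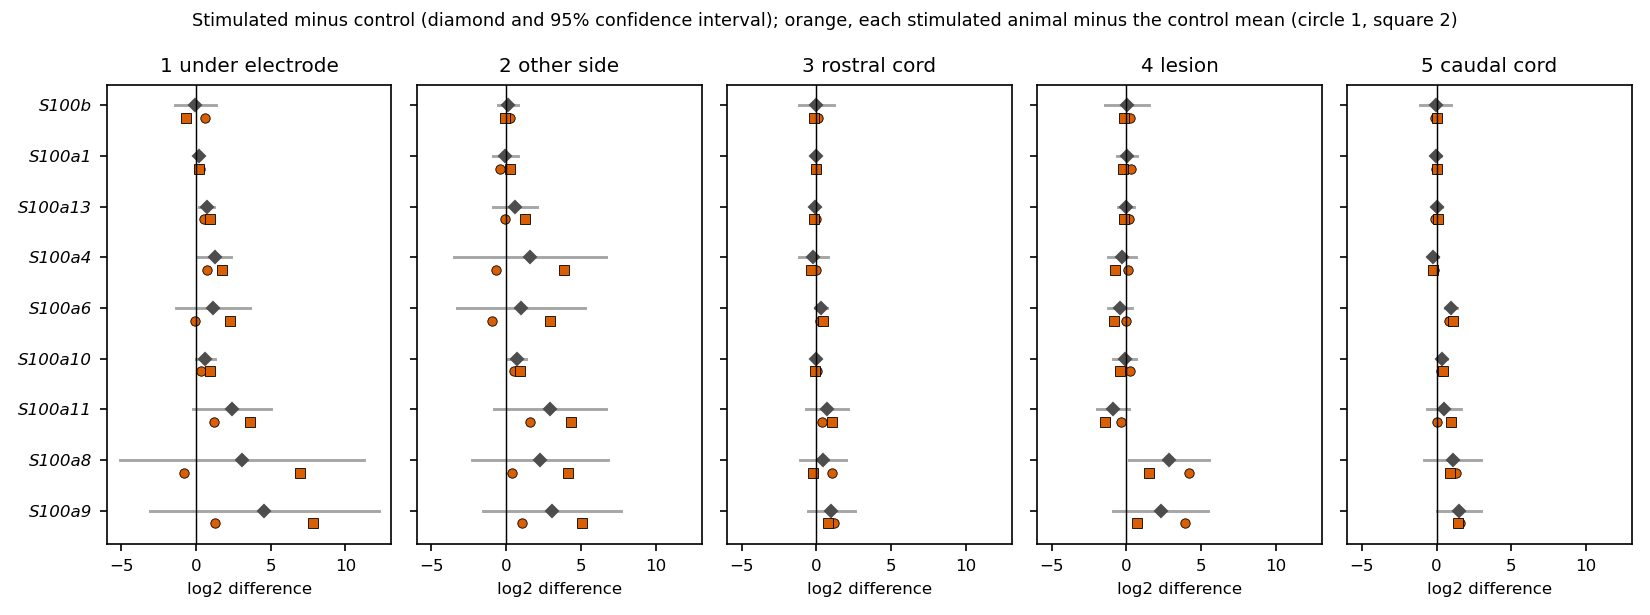
Stimulated minus control in log2 FPKM for the 9 S100 genes in each region, as diamonds with 95% confidence intervals, and each stimulated animal minus the control mean as orange circles (animal 1) and squares (animal 2). In regions 1 and 2 the squares lie to the right of the circles for S100a4, S100a6, S100a11, S100a8 and S100a9, and in region 3 both animals lie near 0 for S100b, S100a1, S100a13 and S100a10.

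In region 1, both stimulated libraries lay above both controls in 5 of the 9 members and below in 0, against 21.2% above and 19.5% below of all genes tested. These 5 were S100a1, S100a4, S100a10, S100a11 and S100a13. S100a4 had a log2 difference of 1.26 (SE 0.39, adjusted p = 0.712) and S100a13 one of 0.71 (SE 0.18, adjusted p = 0.712). S100a13 measured 45.8 FPKM in both controls and 65.0 and 86.6 FPKM in the stimulated animals.

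The calprotectin genes were high in a single stimulated animal of region 1. S100a8 measured 0.511 and 0.150 FPKM in the controls, 0.158 FPKM in stimulated animal 1 and 34.5 FPKM in stimulated animal 2. S100a9 measured 1.13, 0.1, 0.813 and 77.4 FPKM in the same order. The library of stimulated animal 2 was thus 67.5 times the higher control for S100a8 and 68.7 times for S100a9, whereas stimulated animal 1 lay within the controls for both. The log2 differences of 3.07 (SE 2.89) and 4.56 (SE 2.70) did not pass the test (adjusted p = 0.746 and 0.712).

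The same library held the highest S100a6 of all 20, at 101 FPKM, and the lowest S100b, at 180.2 FPKM against 275 to 424 FPKM in the other 3 libraries of region 1. Its neutrophil marker sum was 23.3 FPKM over 10 markers, against 1.87 and 3.87 FPKM in the controls and 3.62 FPKM in stimulated animal 1. Of these markers, 5 reached 1 FPKM there, led by Lcn2 (6.76 FPKM), Csf3r (6.33 FPKM) and Cxcr2 (5.69 FPKM), while Mpo was listed at 0.1 and Elane measured 0.371 FPKM. Macrophage and microglia markers summed to 1018 FPKM, against 246 to 431 FPKM in the other 3 libraries, and fibroblast markers to 152 FPKM, against 30.8 to 50.5 FPKM. Oligodendrocyte markers summed to 1630 FPKM and neuron markers to 593 FPKM, each the lowest of the region (others 1832 to 3103 FPKM and 930 to 997 FPKM), and astrocyte markers to 1524 FPKM, the highest (others 1114 to 1484 FPKM). The part of these cells in the S100 values was not tested.

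In region 2, on the side without electrodes, both stimulated libraries lay above both controls in 3 of the 9 members (S100a9, S100a10 and S100a11) and below in 0, against 20.2% above and 6.77% below of all genes tested. Stimulated animal 2 was again high, with S100a4 at 43.5 FPKM against 1.87 to 4.00 FPKM in the other 3 libraries, and S100a6 at 49.2 FPKM against 3.37 to 6.87 FPKM. S100a8 measured 3.13 FPKM and S100a9 5.11 FPKM there, against at most 0.322 and 0.305 FPKM in the other 3 libraries. S100a10 measured 15.4 and 12.6 FPKM in the controls and 20.1 and 26.8 FPKM in the stimulated animals, a log2 difference of 0.74 (SE 0.20, adjusted p = 0.949). The neutrophil marker sum of stimulated animal 2 was 9.26 FPKM against 1.21 to 1.46 FPKM, and its macrophage and microglia sum was 758 FPKM against 80.3 to 106 FPKM. The part of these cells was not tested.

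**Figure D4:**
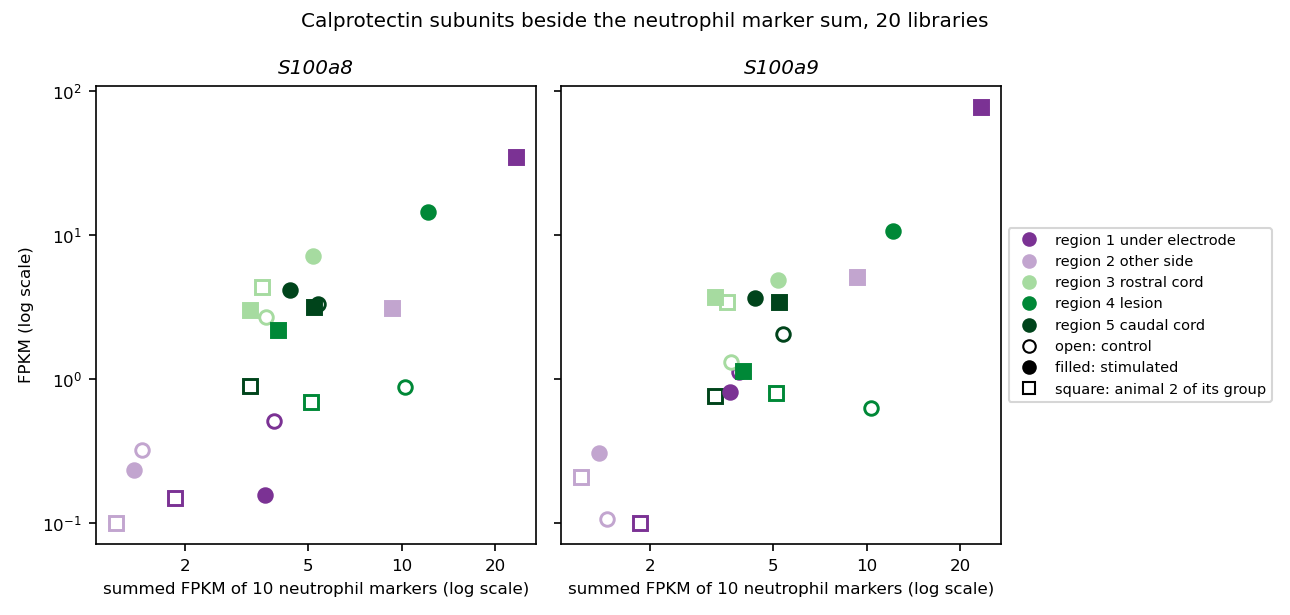
FPKM of S100a8 and S100a9 (log scale) against the summed FPKM of 10 neutrophil markers (log scale) in the 20 libraries, coloured by region, open for control and filled for stimulated, with squares for animal 2 of each group. The region 1 library of stimulated animal 2 lies at the top right, at 23.3 FPKM of markers with 34.5 FPKM of S100a8 and 77.4 FPKM of S100a9, while a control lesion library with a marker sum of 10.3 FPKM has less than 1 FPKM of either gene. In that library, of control animal 1, the highest markers were Csf3r (3.65 FPKM), Lcn2 (3.02 FPKM), Fcnb (1.93 FPKM) and Mmp8 (1.04 FPKM). Mpo, Elane, Camp, Retnlg and Cxcr2 were listed there at the floor of the values.

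In the rostral cord (region 3), 2 of the 9 members had both stimulated libraries above both controls (S100a6 and S100a9) and 1 below (S100a13), against 5.14% and 24.7% of all genes tested. S100a10 (log2 difference -0.03, 95% confidence interval from -0.23 to 0.17) and S100a1 (-0.02, from -0.20 to 0.16) had the narrowest intervals of the 9. S100b was 860.4 ± 158 FPKM in the controls and 858 ± 118 FPKM in the stimulated animals (SD, n = 2).

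At the lesion (region 4), S100a8 and S100a9 lay above both controls in both stimulated animals, and S100a6 and S100a11 lay below, which made 2 of 9 in each direction against 12.5% above and 7.69% below of all genes tested. S100a8 measured 0.879 and 0.699 FPKM in the controls and 14.3 and 2.21 FPKM in stimulated animals 1 and 2, a log2 difference of 2.84 (SE 0.97, adjusted p = 1). S100a9 measured 0.631, 0.799, 10.7 and 1.14 FPKM. Here stimulated animal 1, not animal 2, was the high library. Its neutrophil marker sum was 12.1 FPKM against 5.08 and 10.3 FPKM in the controls. Of these markers, Ngp, Camp, Mpo, Elane, Retnlg, Mmp8 and Cxcr2 were above both controls there, while Csf3r, Lcn2 and Fcnb lay between them. Ngp measured 2.46 FPKM against 0.129 and 0.188 FPKM in control animals 1 and 2, and Csf3r 3.43 FPKM against 3.65 and 2.77 FPKM. Mpo, Elane, Retnlg and Cxcr2 stayed under 1 FPKM. The red blood cell marker sum of this library was 91.2 FPKM against 8.85 to 16.1 FPKM in the other 3 libraries of the region. The part of these cells was not tested. S100a11 measured 13.3 and 13.1 FPKM in the controls and 10.3 and 4.87 FPKM in the stimulated animals, a log2 difference of -0.90 (SE 0.39, adjusted p = 1).

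In the caudal cord (region 5), S100a6, S100a9 and S100a10 lay above both controls in both stimulated animals and S100a4 lay below, against 18.5% above and 6.07% below of all genes tested. S100a6 measured 45.2 and 40.1 FPKM in the controls and 74.6 and 91.8 FPKM in the stimulated animals, a log2 difference of 0.96 (SE 0.15, adjusted p = 0.620). S100a10 measured 88.7 and 84.9 FPKM in the controls and 105 and 119 FPKM in the stimulated animals (log2 difference 0.36, SE 0.11, adjusted p = 1). S100a9 measured 2.05, 0.758, 3.62 and 3.44 FPKM. Fibroblast markers summed to 48.0 and 51.9 FPKM in the controls and to between 90.6 and 151 FPKM in the stimulated animals. Schwann cell markers summed to between 156 and 190 FPKM in the controls and to between 363 and 368 FPKM in the stimulated animals. Their part in these values was not tested.

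Whether the stimulation effect differed between regions was tested on differences within animals, for the 10 pairs of regions. Of the 90 tests of the 9 members, 0 passed (limma, lowest adjusted p = 0.515), with an unadjusted p under 0.05 in 11. Over all genes tested, 0% were called in 8 of the pairs, 0.0131% for region 3 against region 5 and 0.00657% for region 4 against region 5.

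The members varied together to different degrees. Over the 20 libraries, the Pearson correlation of log2 FPKM was above 0 in all 36 pairs of members (median 0.61), which includes their shared differences between regions. After each region's mean was subtracted, 29 of 36 were above 0 (median 0.69). Without stimulated animal 2, whose libraries were high in many members at once, 30 of 36 were above 0 and the median was 0.34 over 15 libraries. The points share animals and library scaling, so these values describe the libraries.

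S100a8 and S100a9 had correlations of 0.92 over all libraries, 0.93 after subtracting region means and 0.79 without stimulated animal 2. On each of these measures another pair was higher. These were S100a1 with S100b (0.94), S100a4 with S100a13 (0.94) and S100a13 with S100b (0.83), in that order. The ratio of S100a9 to S100a8 ran from 0.483 to 2.24 in the 11 libraries where both reached 1 FPKM, a limit set after the values were seen. Over the 20 libraries S100b correlated above 0 with each of the other 8 members (from 0.12 to 0.94). After subtracting region means it correlated negatively with 7 of these 8 (from -0.45 to 0.11). Without stimulated animal 2 that held for 1 of 8 (from -0.16 to 0.83).

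**Figure D5:**
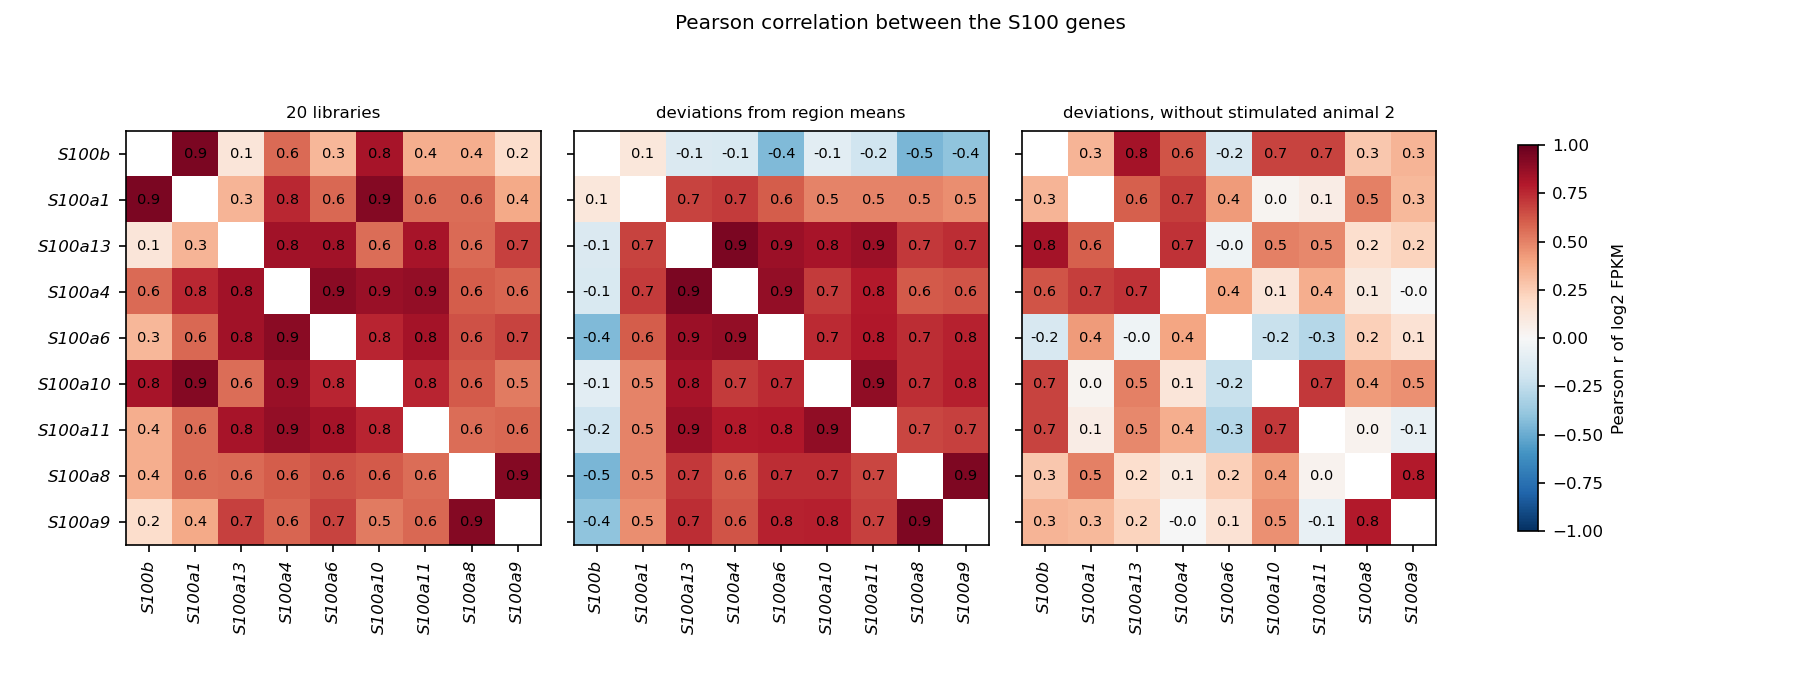
Pearson correlation of log2 FPKM for each pair of the 9 S100 genes over 20 libraries, for deviations from region means over 20 libraries, and for such deviations over the 15 libraries without stimulated animal 2. S100a8 and S100a9 correlate at 0.92, 0.93 and 0.79 in the 3 panels, and S100b is below 0 with 7 of the other 8 members in the middle panel and with 1 in the right panel.

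Among the protein coding genes tested, those whose log2 FPKM correlated most with a member were named by rule as the 3 with the highest r over the 20 libraries. For S100b these were Sgca, Efhd1 and Plekhb1 (r of 0.99 each), and for S100a1 they were Snx24, Acads and Tex9 (0.99 each). For S100a10 they were Pqlc3, Twf1 and Kif7 (0.98 each) and for S100a11 Mboat1, B4galt1 and Myc (0.97, 0.96 and 0.95). For S100a4 the first was Vim (0.99), the gene of the intermediate filament vimentin, and for S100a8 it was S100a9 (0.92). For S100a6 they were A3galt2, Col6a2 and Mgp (0.97, 0.96 and 0.96), the last 2 being matrix genes. After subtracting region means, S100a4 was most like Lgals3 (0.99), the galectin-3 gene, and S100a13 was second most like S100a16 (0.98). Over the 15 libraries without stimulated animal 2 these values were 0.92 and 0.93, and the genes then ranked 8 and 23. For S100a8 the first gene after subtracting region means was again S100a9 (0.93). Without stimulated animal 2 S100a9 ranked 266 for S100a8 (r of 0.79). The 3 genes most like each member after subtracting region means then had ranks from 2 (Slfn13 for S100a4) to 551 (Cchcr1 for S100a8).

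The named partners of S100 proteins made a list of 16 genes, of which 13 were tested, since Ager, Myh9 and Ryr1 did not reach 1 FPKM in any library. Ager, the RAGE receptor, measured between 0.572 and 0.776 FPKM as region means. Of the 13, 5 were higher and 7 lower in white matter than in cord, 3 were higher in region 1 than in region 2, and 5 were higher and 1 lower in caudal than in rostral cord. At the lesion, 3 were higher and 2 lower than in rostral cord, and 3 were lower than in caudal cord. The shares of all genes tested in the same order were 25% higher and 47.1% lower, 6.86% higher, 2.77% higher and 1.55% lower, 6.78% higher and 12.8% lower, and 7.06% lower. The partners' counts are given as a description. Without the region 1 and region 2 libraries of stimulated animal 2 the counts were 5 higher and 8 lower in white matter, 5 higher in region 1, 7 higher and 2 lower caudally, 5 higher and 3 lower at the lesion than rostrally, and 7 lower there than caudally. The shares of all genes then called in either direction were 76.9%, 21.9%, 19.9%, 33.7% and 21.8% in that order. With every library they were 72.2%, 8.61%, 4.32%, 19.6% and 7.99%. In the stimulation comparisons 0 of the partners were called in any region.

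Anxa2, whose product binds that of S100a10, was lower in white matter (log2 fold change -1.96, adjusted p = 1.73e-06) and higher in region 1 than in region 2 (1.65, adjusted p = 0.0186), as was S100a10. The ratio of S100a10 to Anxa2 FPKM was between 1.55 and 1.82 at the lesion, between 1.66 and 2.30 in caudal cord, between 2.22 and 3.00 in rostral cord, between 1.42 and 2.70 in region 1 and between 2.13 and 7.03 in region 2. Lesion and rostral cord did not overlap in this ratio, and region 1 overlapped every other region. Ahnak, a scaffold bound by the S100a10 and annexin A2 complex, was lower in white matter (-1.42, adjusted p = 2.26e-08) and higher in region 1 than in region 2 (0.91, adjusted p = 0.0150). Fgf1, whose release S100a13 assists, was lower in white matter (-3.83, adjusted p = 6.66e-16) where S100a13 did not pass the test. Tlr4, a receptor of calprotectin, was lower in white matter (-1.20, adjusted p = 0.000173) and did not pass the test in the other region comparisons. Without the region 1 and region 2 libraries of stimulated animal 2 it was higher in region 1 than in region 2 (2.63-fold, adjusted p = 0.000123). It was then also higher at the lesion than rostrally (1.81-fold, adjusted p = 0.00117) and caudally than rostrally (1.58-fold, adjusted p = 0.0154). Between lesion and caudal cord it did not pass the test with this setting either (adjusted p = 0.407).

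The table listed 7 further S100 genes, of which S100a3 and S100a16 reached 1 FPKM in a library. S100a16 was lower in white matter (log2 fold change -1.14, adjusted p = 1.17e-07) and, like S100b and S100a1, did not overlap between the tissues, with 18.3 to 44.2 FPKM in white matter and 49.8 to 75.7 FPKM in cord. S100a3 was higher in region 1 than in region 2 (4.60-fold, adjusted p = 0.00217) and higher at the lesion than rostrally (log2 fold change 1.09, adjusted p = 0.0347). S100a10 and S100a11 have pseudogenes in RefSeq, so their reads may be shared with those copies.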

How the data were processed

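Total RNA of 20 tissue blocks (5 regions of 4 rats, 2 stimulated and 2 control) was depleted of ribosomal RNA and sequenced in read pairs. The submitters' processing notes name TopHat2 2.1.0, Cufflinks 2.2.1 and MultiQC 1.6, and the rat build Rnor6. The authors deposited FPKM values, which are scaled to transcript length and library size and were raised to at least 0.1. FPKM keep no read numbers, so the number of reads behind each value is unknown and no counting interval is given. Whether counting used strand is not given in the sources used here.

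Genes with at least 1 FPKM in at least 1 library were kept, which left 15210 of 30443 genes, and log2 FPKM were fitted with limma 3.58.1 (R 4.3.3) with an intensity trend and Benjamini-Hochberg adjustment over all genes kept. Region comparisons used the 20 libraries with a mean per region, stimulation was tested within each region, and differences of the stimulation effect between regions were tested on differences within animals. The labels give replicate numbers, and the 5 libraries with 1 number and group come from 1 animal. Deviations of an animal's libraries from the region means had mean correlations of 0.59 (region 1 with 2), 0.21 (4 with 3), 0.03 (4 with 5) and 0.12 (5 with 3), and a fit with the animal as a block was an alternative. The main region fit held no term for the animal and took the 5 libraries of an animal as independent. Its p-values measure the spread between libraries within regions, pooled over the 5 regions, and the libraries come from only 4 animals. The p-values of stimulation, and of its differences between regions, measure the spread between animals, with 2 a group.

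Values were summarised with Python 3.11.15, numpy 2.4.6 and pandas 2.3.3. The scripts were tested on simulated data. Another pseudocount, filter, scaling, trend, block or set of libraries was tried as an alternative. The members and gene lists were chosen with earlier results of these data known. The text gives each member, the listed partner and marker genes, and genes among the 3 most correlated with a member, and those of S100a13 over the 20 libraries are not reported here. Red blood cell, endothelial and ependymal markers missing from the table were not analysed here.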

Additional observations from a re-analysis of the deposited data

Results flagged for a closer look

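For 14 of the 45 combinations of a gene and a region, 1 of the 4 libraries lay far from the other 3. The rule was Dixon's ratio of the gap to the range, taken on FPKM and not on log2 FPKM. By this rule chance marks about 1 in 20 groups of normally distributed values. FPKM need not be so distributed, so the 14 cannot be judged against that rate. Of these 14, 12 were libraries of stimulated animal 2, and the combinations are not independent, since they share 20 libraries.

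In region 1 that animal was highest for S100a8 (34.5 FPKM, next 0.511), S100a9 (77.4 FPKM, next 1.13), S100a6 (101.5 FPKM, next 23.7) and S100a11 (22.8 FPKM, next 4.22). In region 2 it was highest for S100a8 (3.13 FPKM, next 0.322), S100a9 (5.11 FPKM, next 0.305), S100a4 (43.5 FPKM, next 4.00), S100a6 (49.2 FPKM, next 6.87), S100a11 (3.98 FPKM, next 0.606) and S100a13 (59.1 FPKM, next 26.8). In cord it was the lowest library for S100a13 in region 3 (38.9 FPKM, next 43.0) and for S100a6 in region 4 (20.2 FPKM, next 34.6).

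At the lesion, stimulated animal 1 was highest for S100a8 (14.3 FPKM, next 2.21) and S100a9 (10.7 FPKM, next 1.14). No cause of these values was tested.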

How the results depend on the processing

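Of 630 log2 differences of the 9 genes between regions under other settings, 535 kept their direction and side of the threshold, 51 lost a call, 37 gained one and 7 changed sign, all 7 without an unadjusted p under 0.05. Of 585 stimulation differences, 538 kept both, 4 gained a call and 43 changed sign, 41 of them without an unadjusted p under 0.05. The number of reads behind each value is unknown, and with 4 animals each one bears on the calls. The cause of the changes below was not tested.

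White matter against cord had 4 members called with log2(FPKM + 1), with no filter and with quantile normalization, and between 4 and 9 with 1 animal left out. The shares of all genes called in either direction were 71.5%, 40.9%, 72.8% and between 62.3% and 77.3%, in that order. Region 1 against region 2 had 0 called with no filter (2.29% of all genes) and between 0 and 5 with 1 animal left out (between 0.171% and 24.2%). The lesion against rostral cord had 2 called with log2(FPKM + 1) (20.6% of all genes), 0 with no filter (7.40%), 3 with quantile normalization (31.8%) and 3 with upper-quartile scaling (30.3%). It had 2 with the animal as a block (24.0%), 2 with a mean per region and group (17.8%) and 4 without the region 2 library of stimulated animal 2 (25.7%). With 1 animal left out it had between 0 and 5 (between 3.44% and 32.3%). Caudal against rostral cord had 1 called with no filter (1.48% of all genes), 1 with a mean per region and group (3.45%) and 4 without that region 2 library (10.6%). With 1 animal left out it had between 0 and 4 (between 0.355% and 8.13%). Leaving out both white matter libraries of stimulated animal 2 was a setting chosen after seeing the data. The lesion against rostral cord then had 5 called (33.7% of all genes), the lesion against caudal cord 2 (21.8%) and caudal against rostral cord 5 (19.9%). The animal as a block changed the calls of S100a6 between regions 1 and 2 and of S100a10 between regions 4 and 3 and no other call of these genes.

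The stimulation replicate numbers name different animals, and same-numbered control and stimulated libraries deviated from their group means with correlations of -0.21, -0.10, -0.11, 0.32 and -0.16 in regions 1 to 5. With that number as a replicate block, region 5 had 3 members called (S100a6, adjusted p = 0.0123, S100a8, 0.0410, and S100a9, 0.000354). Of all genes 2.91% were then called in region 5, against 0.0197% with the main settings. Of the 90 tests of a difference of the effect between regions 6 passed, in 4 members (S100a6, S100a8, S100a9 and S100a11). The share of all genes called in those tests with this block is not given here, so the 6 cannot be weighed against it. Since the number pairs different animals, these calls are not read as an effect of stimulation. With 1 animal left out, where the lone library of an arm is assumed to vary like the other group, region 2 had between 0 and 1 called, S100a6 at 2.93 (adjusted p = 0.0238) without stimulated animal 1.

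With 1 animal left out, log2 differences that changed sign between regions were S100b in region 1 minus 2 (from -0.16 to 0.15), S100a8 in region 4 minus 5 (-0.93 to 0.29), S100a9 in region 4 minus 5 (-1.07 to 0.019) and S100a9 in region 5 minus 3 (-0.90 to 0.043). For stimulation in region 1 they were S100a6 (-0.078 to 2.29), S100a8 (-0.81 to 6.96) and S100b (-0.66 to 0.58). In region 2 they were S100a1 (-0.38 to 0.28), S100a4 (-0.68 to 3.86), S100a6 (-0.94 to 2.93), S100a13 (-0.048 to 1.26) and S100b (-0.061 to 0.24). In region 3 they were S100a1 (-0.052 to 0.0070), S100a4 (-0.62 to 0.22), S100a8 (-0.19 to 1.05), S100a10 (-0.082 to 0.026) and S100b (-0.19 to 0.19). In region 4 they were S100a1 (-0.26 to 0.32), S100a4 (-0.75 to 0.10), S100a10 (-0.44 to 0.22), S100a13 (-0.19 to 0.14) and S100b (-0.16 to 0.22). In region 5 they were S100a1 (-0.13 to 0.0996), S100a13 (-0.10 to 0.11) and S100b (-0.20 to 0.11).

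Other sign changes were S100b in region 1 minus 2 at 0.15 without both white matter libraries of stimulated animal 2, and S100a13 in region 4 minus 5 at 0.090 with quantile normalization and 0.048 with upper-quartile scaling. For stimulation, quantile normalization and upper-quartile scaling gave S100b in region 2 at -0.15 and -0.015, S100a1 in region 3 at 0.058 and 0.050, S100a10 in region 3 at 0.041 and 0.045 and S100a13 in region 5 at -0.016 and -0.030. Quantile normalization alone gave S100b at -0.034 in region 3 and 0.047 in region 5.

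Over all genes, the number called between regions 1 and 2 was 1310, and 698 with no filter, 2247 with upper-quartile scaling, between 26 and 3674 with 1 animal left out, 3580 without the region 2 library of stimulated animal 2 and 3335 without both its white matter libraries. For the lesion against rostral cord it was 2984, and 4842 with quantile normalization, 4603 with upper-quartile scaling, between 523 and 4909 with 1 animal left out and 5126 without both libraries. For the lesion against caudal cord it was 1216, and 578 with no filter, 470 with quantile normalization, 627 with upper-quartile scaling, 1966 with the animal as a block, 522 with a mean per region and group, between 5 and 1097 with 1 animal left out and 3314 without both libraries. For caudal against rostral cord it was 657, and 1109 with quantile normalization, 1169 with upper-quartile scaling, between 54 and 1237 with 1 animal left out, 1616 without the region 2 library and 3034 without both. For stimulation in region 5 it was 3, and 22 with no filter, 443 with the replicate block, 18 in one model of all libraries and up to 147 with 1 animal left out. In regions 1, 2 and 4 it was 0, and up to 228, 548 and 140 with 1 animal left out.

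The share of called genes that were higher moved with the scaling, from 34.7% to 45.6% (quantile) in white matter against cord, from 79.6% to 52.9% (quantile) and 58.6% (upper quartile) in region 1 against 2, from 34.6% to 46.0% (upper quartile) at the lesion against rostral cord, from 11.7% to 41.5% and 52.3% at the lesion against caudal cord, and from 64.2% to 39.2% and 35.8% in caudal against rostral cord. With log2(FPKM + 1) it was 69.3% in region 1 against 2. Quantile normalization moved the median of all genes from -0.18 to -0.045 in white matter against cord, from 0.059 to -0.048 in region 1 against 2, from -0.14 to -0.027 at the lesion against caudal cord and from 0.11 to -0.017 in caudal against rostral cord.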
